A study of Folsomia candida with 36 samples.

Results

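The 100 genes described here are those whose expression followed the second principal component of the 36 libraries most closely. Counts were expressed as CPM (counts-per-million of the library's total count), and 11667 of 28734 gene models had a mean CPM of 5 or more and a variance of log2(CPM + 0.1) of 4 or less. A principal component analysis of log2(CPM + 0.5), centred on each gene's mean, was made over those genes, and the 100 with the highest absolute Pearson correlation with the second component's scores were taken. Of these, 90 correlated positively and 10 negatively. The sign of a component is arbitrary, and the sign shared by most members is called positive. Measured expression in all 36 libraries thus chose the members, so their correlations with the component and with each other are given as a description.

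The libraries were made from whole animals of the springtail Folsomia candida, a small soil hexapod used in soil toxicity tests. All groups were of the Berlin strain, labelled WT, and each library came from a pool of 70 animals kept on LUFA2.2, a natural soil, in glass jars. The soil held imidacloprid at 0.25 mg per kg dry soil, a neonicotinoid insecticide at the concentration said to lower reproduction by 20% (EC20), or water only as the control. Pools were sampled at 12, 24, 36, 48, 60 and 72 h, with 3 libraries in each of the 12 groups.

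A principal component is a weighted sum of genes that captures variation shared by many of them. It is found without the treatment or time labels, so it can follow the treatment, the time, or a difference between pools of the same group. Adult springtails moult throughout life, with instars of reproduction and of feeding that alternate, and whole-body RNA mixes gut, epidermis, gonad and all other tissues. In such RNA, fewer cells of a type and less RNA per cell cannot be told apart. The identifiers of the count table have no counterpart in the available gene table of the species (0 matched), so no gene product is named and no sequence is shown.

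Total counts ran from 20280135 to 42146055 per library, with a median of 25542483. The second component held 12.4% of the variance of the filtered genes, between 35.5% on the first and 10.5% on the third. Its scores ran from −42.4 in imidacloprid 72 h replicate 1 to 36.2 in control 12 h replicate 6. Other low scores were −35.1 in control 36 h replicate 4, −29.5 in control 72 h replicate 5 and −26.4 in control 36 h replicate 5. Libraries of both treatments were thus found at both ends. The scores had no detectable relation to library size, with r = −0.029 against the total count (permutation test, 100000 permutations, p = 0.867, adjusted p = 0.906 over 3 relations) and Spearman's rho = −0.094 (p = 0.585, adjusted p = 0.816). Against the number of genes with a count, r was −0.020 (permutation p = 0.906, adjusted p = 0.906) and rho was 0.040 (p = 0.816, adjusted p = 0.816). Against the share of counts in the 100 most abundant genes, r was −0.256 (permutation p = 0.134, adjusted p = 0.401) and rho was −0.270 (p = 0.113, adjusted p = 0.339). Without the 2 libraries farthest from the median of each measure, these r were −0.118, −0.116 and −0.337.

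The 90 positive members moved up and down together by severalfold, and much of that movement was between pools that shared treatment and time. Their mean log2(CPM + 0.5) was lowest at 3.15 in imidacloprid 72 h replicate 1 and highest at 5.75 in control 12 h replicate 6, a span of 6.06-fold. The median library stood at 4.78. Group means covered 1.24 on this log2 scale, from 4.02 in the controls at 36 h to 5.27 in the controls at 12 h. Within a group, the 3 libraries covered between 0.53 and 2.28, with a median of 1.15 over the 12 groups. A mean of 3 libraries varies less than a single library, so these spans are unlike measures.

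At 12 h, the positive members' mean stood at 4.89, 5.15 and 5.75 in control replicates 2, 3 and 6. With imidacloprid it was 4.06, 5.15 and 4.05 in replicates 2, 5 and 6. Exposed replicate 5 therefore stood among the controls, with the other two well under them. At 24 h, the controls were at 4.80, 4.90 and 4.36 and the exposed libraries at 4.77, 5.16 and 5.33. The groups overlapped, and their ranges of 0.53 and 0.56 were among the narrowest.

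At 36 h, control replicate 3 was at 5.07, and control replicates 4 and 5 were at 3.17 and 3.84. The exposed libraries were at 4.89, 4.34 and 3.70, inside the range of the controls. At 48 h, the controls were at 4.32, 3.93 and 4.69 and the exposed libraries at 3.82, 4.56 and 5.14. The groups at 60 h again overlapped, with controls at 5.13, 4.57 and 4.86 and exposed libraries at 4.17, 5.60 and 5.29.

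At 72 h, the spread was widest in the exposed group. Controls were at 5.12, 5.33 and 3.62 in replicates 3, 4 and 5, and exposed libraries at 3.15 in replicate 1 and at 5.44 and 4.16 in libraries 71 and 72, both titled replicate 4. A single control and 2 exposed libraries were thus low at this time point. Over all time points the mean was 4.64 ± 0.66 in controls and 4.60 ± 0.70 with imidacloprid (SD, n = 18 each), and the ranges of the treatments overlapped at every time point.

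**Figure D1:**
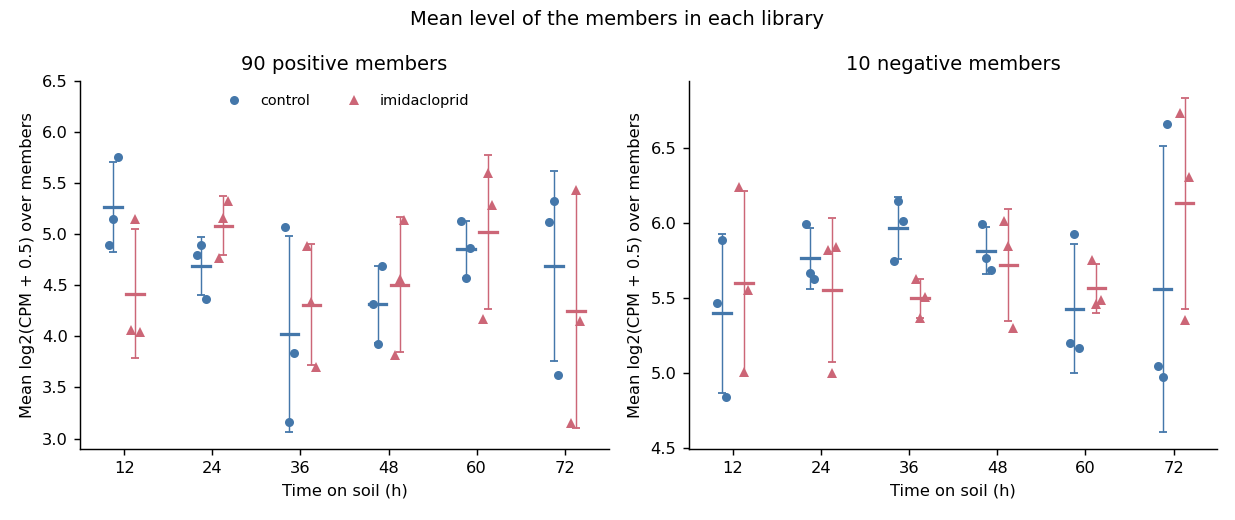
Mean log2(CPM + 0.5) over the 90 positive members (left) and the 10 negative members (right) in each library, by time on soil in h. Circles are control and triangles imidacloprid libraries (3 a group), bars are group means and whiskers 1 SD. Single libraries of a group spread by up to 2.28 for the positive members. Their group means, which vary less because each is over 3 libraries, span 1.24.

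The 10 negative members ran the other way. Their mean log2(CPM + 0.5) was highest at 6.73 in imidacloprid 72 h replicate 1 and lowest at 4.84 in control 12 h replicate 6, the libraries at the opposite ends for the positive members. This was a span of 3.70-fold around a median of 5.68. Within groups the 3 libraries covered between 0.26 and 1.69, and group means ran from 5.40 to 6.13. The treatment means over all time points were 5.66 ± 0.47 in controls and 5.68 ± 0.45 with imidacloprid (SD, n = 18 each).

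At 72 h, control replicate 5 was at 6.66 on this scale against 5.05 and 4.97 in control replicates 3 and 4. Exposed replicate 1 and library 72 were at 6.73 and 6.30, and library 71 was at 5.36. The same 3 libraries that were low for the positive members were thus high for the negative ones. At 36 h the treatments did not overlap, with controls at 5.74, 6.14 and 6.01 and exposed libraries at 5.62, 5.37 and 5.51. At the other 5 time points the ranges overlapped. How many of all genes also failed to overlap at 36 h was not counted, and the negative members share a profile.

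The signs were opposite in the libraries at the ends of the component, and less so between them. The rule chose members by the score that defines those ends, so this is a description. All 10 negative members stood above their own median over the 36 libraries, with none of the 90 positive members above theirs, in control 36 h replicates 4 and 5, control 72 h replicate 5 and imidacloprid 72 h replicate 1. The reverse held in control 12 h replicate 6, where all 90 positive and 0 negative members were above their medians. Both signs were mostly high in imidacloprid 24 h replicate 6, with 87 positive and 8 negative members above their medians, and in control 12 h replicate 3, with 74 and 9. Both were mostly low in imidacloprid 12 h replicate 6, with 0 and 3, and in imidacloprid 36 h replicate 2, with 19 and 0. The positive members together took between 0.198% and 0.811% of a library's counts, and the negative members between 0.126% and 0.891%.

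**Figure D2:**
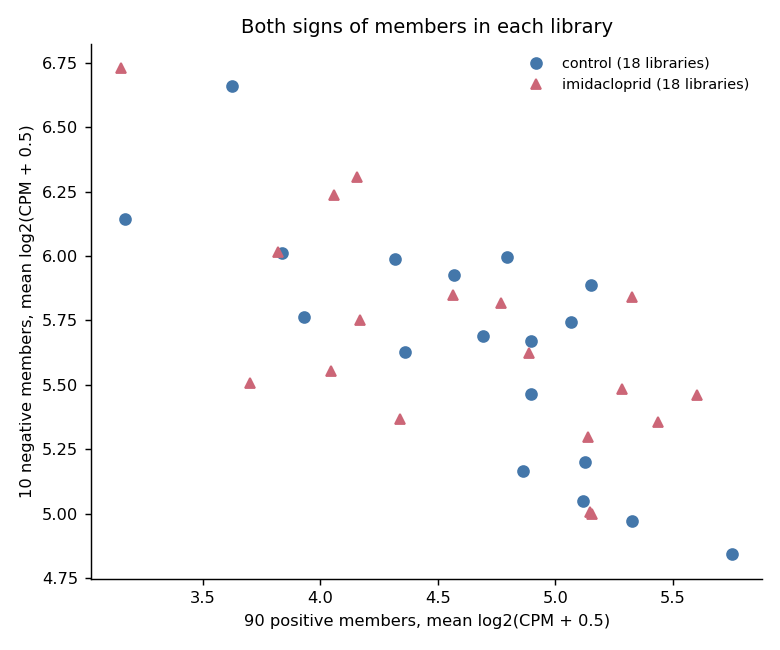
Mean log2(CPM + 0.5) of the 90 positive members (horizontal axis) against that of the 10 negative members (vertical axis), 1 point for each of the 36 libraries. Control circles and imidacloprid triangles are mixed along the whole diagonal, from imidacloprid 72 h replicate 1 at 3.15 and 6.73 to control 12 h replicate 6 at 5.75 and 4.84.

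The positive member that followed the component most closely was Fcan01_19351, with r = 0.901 over the 36 libraries. It stood at 101, 95.2 and 158 CPM in the controls at 12 h and at 45.9, 116 and 85.0 CPM with imidacloprid. At 24 h it was at 84.0, 108 and 98.2 CPM in controls and 103, 128 and 119 CPM with imidacloprid, and at 36 h at 110, 47.5 and 39.5 CPM against 88.9, 77.4 and 60.1 CPM. The ranges of the treatments overlapped at these time points. At 48 h the controls were at 61.2, 62.6 and 76.8 CPM and the exposed libraries at 51.4, 70.8 and 113 CPM. At 60 h the values were 115, 69.0 and 100 CPM in controls and 53.0, 188 and 162 CPM with imidacloprid. Both its lowest and its highest value came from the exposed animals at 72 h, where replicate 1 had 20.0 CPM and libraries 71 and 72 had 200 and 53.2 CPM. The controls at 72 h were at 186, 143 and 59.5 CPM, between those extremes. Averaged over time points, its log2 fold change with imidacloprid was 0.01 ± 0.21 (SE, edgeR quasi-likelihood test, adjusted p = 1.00).

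Fcan01_13530, second among the positive members with r = 0.898, ran from 33.6 to 150 CPM. Its values at 72 h were 142, 150 and 62.0 CPM in controls and 33.6, 118 and 46.4 CPM with imidacloprid. The exposed libraries reached lower, but control replicate 5 lay among them. At 36 h it was at 101, 40.0 and 53.3 CPM in controls and 71.5, 102 and 79.2 CPM with imidacloprid, again with overlap.

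Among the negative members, Fcan01_17703 had the lowest r, −0.825, and ran from 12.3 to 93.9 CPM. Its high values were few: at 72 h it was at 15.9, 15.6 and 76.6 CPM in controls and at 93.9, 21.9 and 56.7 CPM with imidacloprid. In all other libraries it did not pass 44.7 CPM, the value of imidacloprid 12 h replicate 2. At 36 h it was at 26.5, 37.5 and 31.4 CPM in controls and at 20.9, 22.9 and 20.7 CPM with imidacloprid. The treatments did not overlap there, but the log2 fold change of −0.61 ± 0.54 (SE) was close to its error (edgeR, adjusted p = 0.643). How many of all genes also failed to overlap was not counted.

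Fcan01_16751, next with r = −0.819, had a narrower range of 19.7 to 48.4 CPM. At 36 h it was at 40.3, 38.4 and 40.7 CPM in controls and at 27.8, 23.9 and 23.9 CPM with imidacloprid. All 3 exposed libraries were below all 3 controls. The log2 fold change of −0.71 ± 0.32 (SE) did not pass the adjusted test (edgeR, unadjusted p = 0.035, adjusted p = 0.471), and 0% of all tested genes were called at this time point. An unadjusted edgeR p under 0.05 was found for 10.4% of all tested genes at 36 h. At 72 h it was at 20.7, 21.2 and 48.4 CPM in controls and at 42.8, 20.9 and 36.5 CPM with imidacloprid, so that the treatments overlapped.

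**Figure D3:**
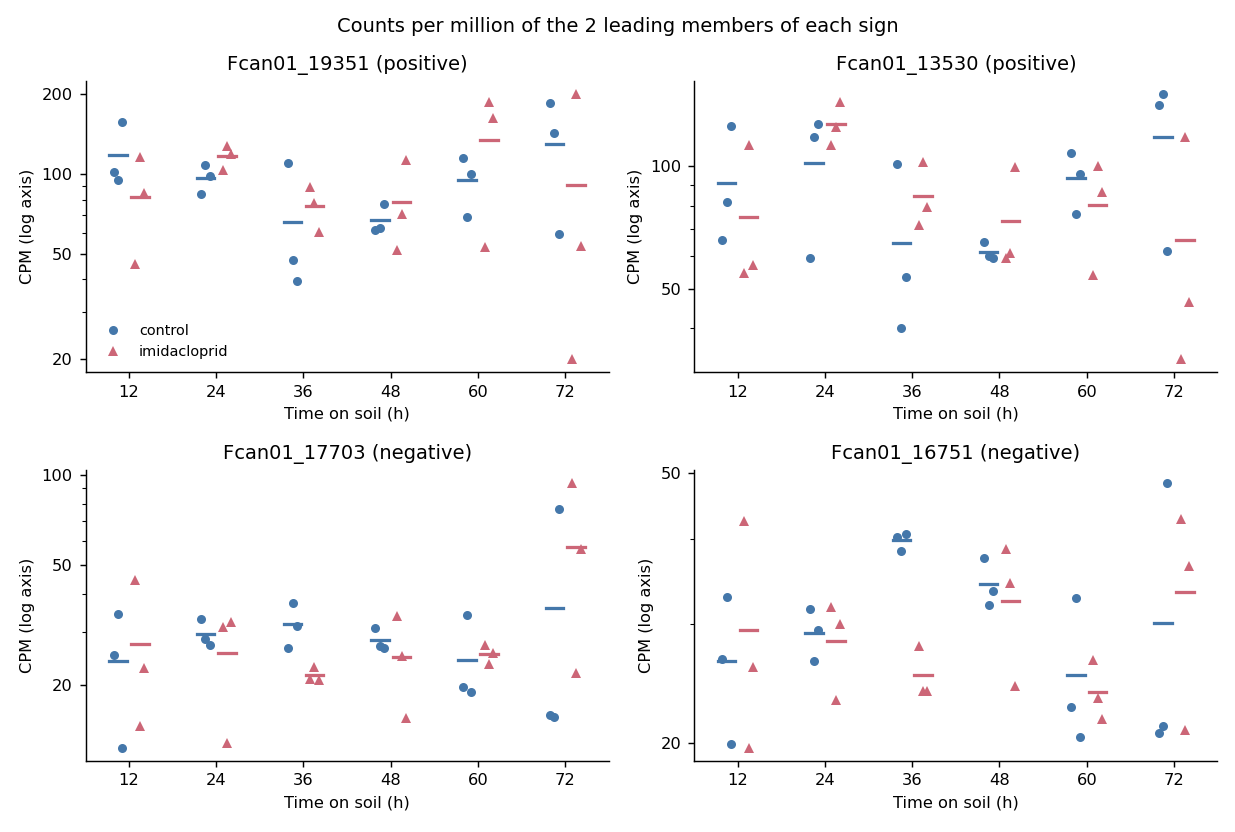
CPM (log axis) of Fcan01_19351, Fcan01_13530, Fcan01_17703 and Fcan01_16751 by time on soil in h, in 18 control libraries (circles) and 18 imidacloprid libraries (triangles), with bars at the group means. At 72 h Fcan01_19351 covers 20.0 to 200 CPM in the exposed group alone. At 36 h both negative members are lower in all 3 exposed libraries, with neither called by edgeR. How many of all genes did likewise was not counted, and 10.4% of them had an unadjusted edgeR p under 0.05 at 36 h.

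The members with the most counts also followed the component, as the rule requires, but differed in their extreme libraries. For the positive Fcan01_19537, the lowest value was 254 CPM in control 48 h replicate 4 and the highest 893 CPM in control 12 h replicate 6, with a median of 463 CPM. Fcan01_09885, also positive, moved less, from 228 CPM in library 72 to 470 CPM in control 24 h replicate 6 with a median of 384 CPM. It was 98th by absolute correlation, near the edge of the 100.

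The negative Fcan01_24666 alone supplied much of the counts of its sign. At 72 h it was at 1822, 1394 and 5859 CPM in controls and at 8072, 2884 and 5629 CPM with imidacloprid, with a median of 2551 CPM over all libraries. Control replicate 5, exposed replicate 1 and library 72 were the only libraries above 4161 CPM, the value of control 36 h replicate 4. Its lowest value was 946 CPM in imidacloprid 12 h replicate 5. Fcan01_13266, also negative, ran from 97.7 CPM in control 60 h replicate 6 to 238 CPM in imidacloprid 72 h replicate 1.

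Members differed widely in how far they moved. The ratio of the highest to the lowest library ran from 1.77-fold to 442-fold among positive members, with a median of 7.69-fold, and from 2.08-fold to 8.84-fold among negative members, with a median of 4.60-fold. The largest ratio rests on a single count in its lowest library (0.0364 CPM, against 16.1 CPM in the highest), and 3 members had under 10 counts in their lowest library. The standard deviation of log2(CPM + 0.5) had a median of 0.70 over positive and 0.53 over negative members, against 0.37 over all filtered genes. The analysis did not scale genes to equal variance, so genes that vary more weigh more in the component.

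Large and small movers were both chosen by the rule for the same profile, so correlations among them are a description. There were 37 positive members that changed over 10-fold (median 34.6-fold) and 53 that changed 10-fold or less (median 3.72-fold). The median correlation between pairs was 0.872 among the former, 0.735 among the latter and 0.775 across them. Imidacloprid 72 h replicate 1 was the lowest library for 40 of the 90 positive members, and control 36 h replicate 4 for 27. The highest was control 12 h replicate 6 for 40 and imidacloprid 60 h replicate 3 for 20. For the negative members, imidacloprid 72 h replicate 1 was the highest library for 5 of 10 and control 72 h replicate 5 for 4.

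**Figure D4:**
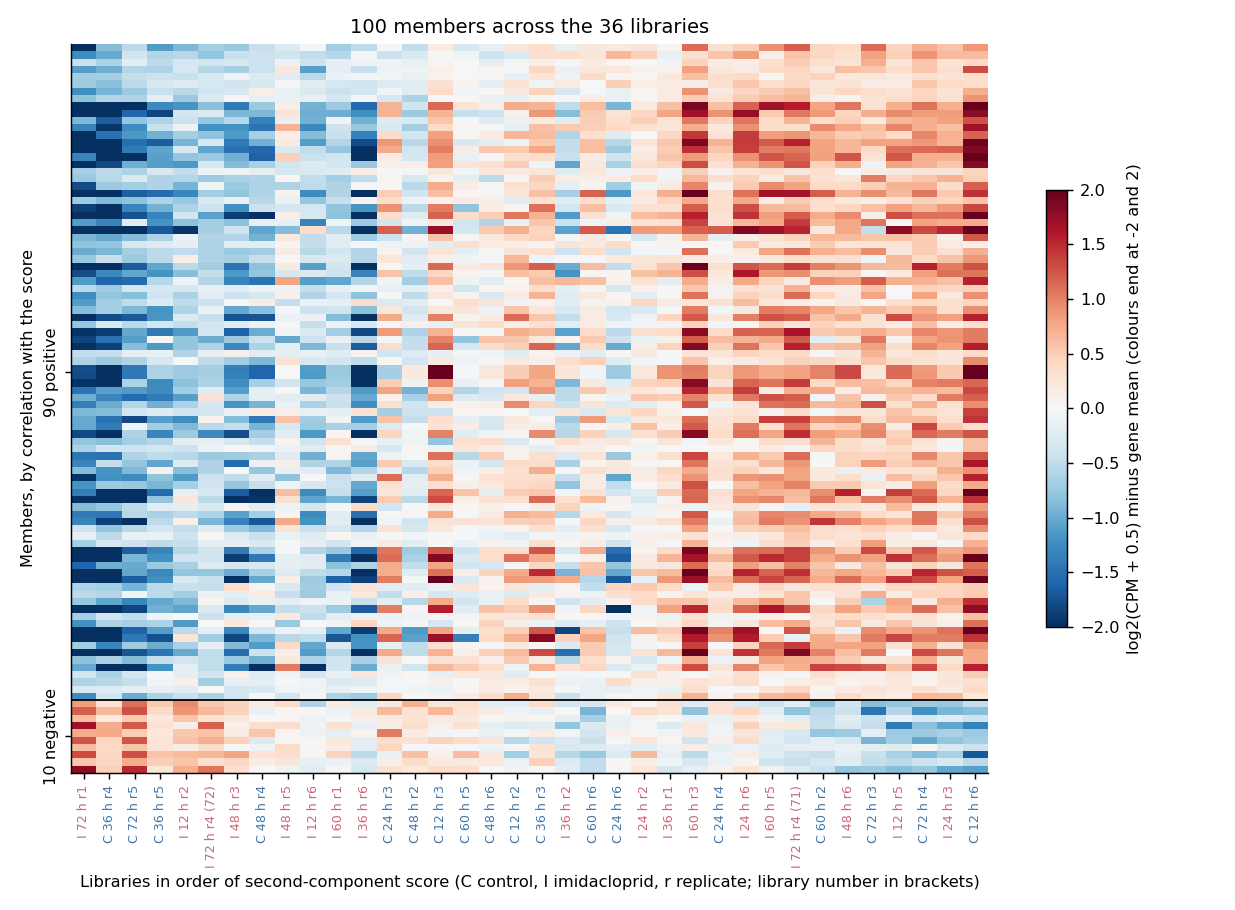
Log2(CPM + 0.5) minus the gene's mean (colour, blue low and red high, ending at −2 and 2) for 90 positive members above the line and 10 negative members below it (rows, by correlation with the score) in the 36 libraries (columns, by score). Control (C) and imidacloprid (I) libraries are interspersed, and the lowest and highest scores belong to imidacloprid 72 h replicate 1 and control 12 h replicate 6.

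The correlations with the component fell off gradually, with no gap at the edge of the 100. The absolute r was 0.773 at ranks 99 and 100 and 0.771 at ranks 101 and 102. Beyond the members, the filtered genes included many with the same profile in weaker form: 295 had an absolute r of 0.7 or more, members included, and 1491 (12.8%) had 0.5 or more. None of the members (0) was among the 100 genes closest to the first component or the 100 closest to the third. The scores of different components are uncorrelated, so a gene that follows the second closely cannot follow another as closely. This 0 was thus largely set by the rule. Positive members had r from −0.50 to 0.36 with the first component and from −0.45 to 0.35 with the third.

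Positive members correlated with each other at a median r of 0.780 over 4005 pairs, negative members at 0.803 over 45 pairs, and positive with negative members at −0.595 over 900 pairs. These points share libraries, and the rule chose genes for a common profile. The median over all pairs of filtered genes was 0.018. When each group's mean was removed first, so that only differences between pools of the same treatment and time remained, these medians were 0.810, 0.861 and −0.635. In the 18 control libraries alone they were 0.782, 0.805 and −0.638, and in the 18 exposed libraries 0.809, 0.820 and −0.584. Every pair of members of the same sign was positively correlated in both treatments.

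A reading in libraries that the choice did not use was possible by applying the rule to a single treatment. Applied to the 18 imidacloprid libraries alone, it took 57 of the 100 members, and its second component correlated with the scores above at an absolute r of 0.976. The 99 positive genes it chose, read in the 18 control libraries, had a median pairwise r of 0.731 with 98.1% of pairs above 0, against a median of 0.015 over all filtered genes. Applied to the 18 controls alone, the rule took 0 of the members, and the second component there correlated with the scores at an absolute r of only 0.241. The scores correlated more closely with the third component of the controls, at an absolute r of 0.854, and with the first at 0.415. The 100 genes closest to the third component included 6 members, and the members' own absolute r with it had a median of 0.582. The 88 positive genes chosen by the second component of the controls, read in the imidacloprid libraries, had a median pairwise r of 0.446. Of their pairs, 86.0% were above 0, and the median over all filtered genes was 0.026. The 12 negative genes chosen with them had a median of 0.581.

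Treatment and time accounted for about as much of the members' variance as the number of groups takes up. Between the 12 groups lay a median of 31.9% of the variance of log2(CPM + 0.5) for positive members (16.6% to 50.1%) and of 27.2% for negative members (14.5% to 41.6%). The 12 groups use 11 of 35 degrees of freedom, or 31.4%. The median was 37.4% over all filtered genes and 32.8% over the 100 genes closest to the first component, and 78 of the 100 members were below the median of all filtered genes. The component's scores themselves had 30.1% between groups, compared with 36.6% for the first and 70.4% for the third component. The rule chose the members for following the second component's scores. Their shares thus largely repeat that of the scores and are not 100 separate observations.

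**Figure D5:**
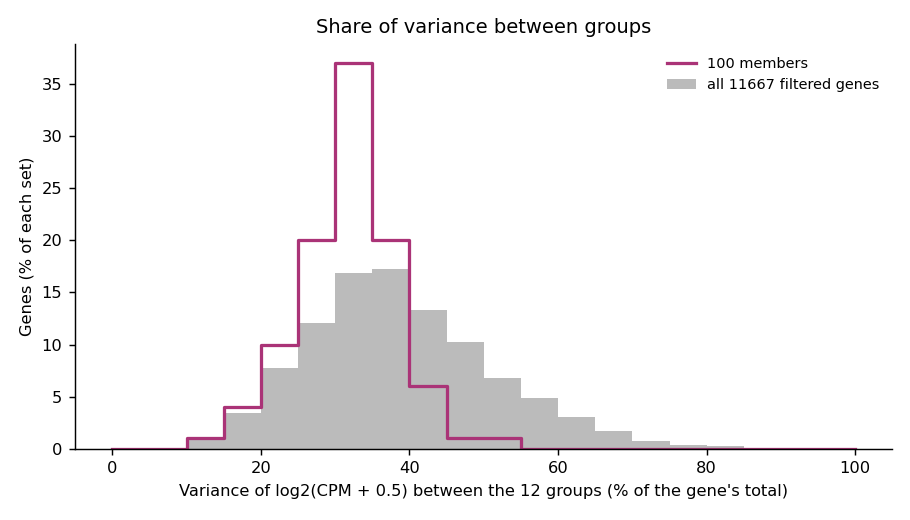
Share of each gene's variance of log2(CPM + 0.5) that lies between the 12 groups (horizontal axis, %), as the percentage of each set of genes (vertical axis), for 100 members (line) and 11667 filtered genes (grey bars). The members centre near 32% and few pass 45%, while the grey bars reach beyond 60%.

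Whether the members differed between treatments or over time was tested in a fit across 19600 genes, by edgeR's quasi-likelihood test with Benjamini-Hochberg adjustment at 0.05. The p-values weigh group differences against the spread between pools, estimated over all 12 groups. The labels do not say how independent the jars were, and the p-values hold only if the pools are independent. All 100 members entered the fit. They share a profile, so their counts are not independent observations. Averaged over the 6 time points, 0 of 100 members were called, where 0.306% of all tested genes were. None (0) had an unadjusted p under 0.05 either, against 3.29% of all genes, and DESeq2 called 0 members and 0.679% of all genes. The median log2 fold change with imidacloprid was −0.01 over the positive members, whose standard errors had a median of 0.21, and 0.01 over the negative members.

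At 12 h, the positive members had a median log2 fold change of −0.85, with a median standard error of 0.52, and 1 of 90 was above 0, compared with 49.85% of all tested genes. No member was called (0, edgeR, where 0% of all genes were, and 0 by DESeq2, with 0.0663% of all genes), and 4 positive members had an unadjusted p under 0.05, against 3.31% of all genes. Without exposed replicate 5 the positive median was −1.29 and 31 members had an unadjusted p under 0.05, as did 1291 of all 19865 genes tested, with 0 members called. That library stood among the controls, with a positive mean of 5.15, so its removal by itself widens the difference. The members share a profile, so the 31 are not separate observations. The negative members had a median of 0.17 with all 10 above 0. At 24 h the medians had the opposite signs. The positive members had a median of 0.35 (−0.06 to 1.00), with a median standard error of 0.52. The negative members had a median of −0.17 (−0.57 to 0.32), with a median standard error of 0.49. Again 0 were called by edgeR (0% of all genes) and 0 by DESeq2 (0.107%), and 0 had an unadjusted p under 0.05, against 1.74% of all genes.

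At 36 h the negative members had a median log2 fold change of −0.57 (−0.90 to −0.22), with a median standard error of 0.49. The positive members had a median of 0.13 (−0.76 to 0.72), with a median standard error of 0.52. Of the 100, 0 were called (edgeR, 0% of all genes, and 0 by DESeq2, with 0.27% of all genes). An unadjusted p under 0.05 was found for 2 negative and 2 positive members, where 10.4% of all genes had one. At 48 h the medians were 0.32 and 0.02, and the median of all genes was itself at 0.11. None was called (0 by edgeR, with 0.0357% of all genes, and 0 by DESeq2, with 0.27%), and 0 had an unadjusted p under 0.05, against 14.4% of all genes. At 60 h the medians were 0.24 and 0.04, with 0 called by edgeR (0.0204% of all genes), 0 by DESeq2 (0.0816%) and 0 at an unadjusted p under 0.05 (3.65% of all genes).

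At 72 h the direction was again that of 12 h. The positive members had a median log2 fold change of −0.38 (−1.54 to 0.52), with a median standard error of 0.52. The negative members had a median of 0.42 (0.12 to 0.86), with a median standard error of 0.49. No member was called (0 by edgeR, with 0.0255% of all genes, and 0 by DESeq2, with 0.107%), and 5 positive members had an unadjusted p under 0.05, against 4.07% of all genes. Fcan01_13530 was among these, with a log2 fold change of −0.91 ± 0.40 (SE) and an adjusted p of 1.00 by edgeR. These medians turned on single libraries: without library 71 the positive median was −1.11 and 42 members had an unadjusted p under 0.05, as did 1226 of all 19938 genes tested, and without exposed replicate 1 the positive and negative medians were −0.0027 and −0.0031. In neither case was a member called (0). Library 71 had the highest positive mean of the exposed group at 72 h and replicate 1 the lowest, so each removal by itself moves the median.

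Over the time points, 0 members were called in the controls, where 1.28% of all genes were, and 0 with imidacloprid, where 1.06% were (edgeR, any difference among 6 time points). Unadjusted p under 0.05 were found for 5 positive members in the controls (19.6% of all genes) and for 1 negative member, Fcan01_24666, with imidacloprid (15.2% of all genes). In the controls, DESeq2 called 8.58% of all genes and 1 member, the positive Fcan01_01532 (DESeq2, adjusted p = 0.017), which edgeR did not call (adjusted p = 0.109). This gene, named after its values were seen, had the largest share of variance between groups of the 100, 50.1%. With imidacloprid DESeq2 called 0 members and 5.84% of all genes. The change of the treatment effect over time gave 0 members (edgeR, 0% of all genes, and 0 by DESeq2, with 0.347%), and 1 at an unadjusted p under 0.05 against 6.58% of all genes.

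Members sat near each other in the table's numbering in a few cases. There were 6 pairs of members with consecutive identifiers, 12 genes in all, and in 0 of the pairs did the signs differ. Across all filtered genes, 7304 consecutive pairs had a median r of 0.222, against 0.018 for all pairs. Whether consecutive identifiers mean adjacent genes is not stated in the sources used here. The pair Fcan01_10716 and Fcan01_10720, named because no other pair of members had an r over 0.99, had r = 1.00 and a ratio of total counts of 1.001. The authors' estimation step divides reads between similar transcripts. No sequence was available to show whether this pair is similar. Its counts may therefore be uncertain, and whether they stand for a single signal was not tested.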

How the data were processed

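The data were 1 table of 28734 gene models by 36 libraries, whose values the authors deposited as estimated counts. Per the labels' protocols, RNA was isolated with TRIzol, stranded mRNA libraries were made with a TruSeq kit, reads were trimmed with Trim Galore (a wrapper of Cutadapt, 0.6.7), quantified with Salmon 1.4.0 against the transcriptome, and normalized with DESeq2 1.28.1. The column totals differ, so the deposited table was taken as not yet normalized. Rounding changed no value (0 were fractional). For the transcriptome, the sources used here name no release. Salmon divides reads between similar transcripts, so near-identical copies are uncertain.

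Columns were matched to samples by the sample descriptions (0 columns were unmatched), and groups came from the treatment and time labels. Some titles are irregular: 2 libraries of the 72 h imidacloprid group carry the number 4 and are given here by their library numbers 71 and 72. Their chi-square per degree of freedom was 112, inside the range of 22.1 to 367 over the 36 within-group pairs, and both were counted as replicates. Imidacloprid 12 h replicate 5 has no library number. Number 2 is on control 12 h replicate 2 and imidacloprid 12 h replicate 6. Number 8 is on imidacloprid 12 h replicate 2 and control 24 h replicate 6. Imidacloprid 60 h replicate 1 has number 34, between numbers 33 and 35 of the 36 h exposed group. All were kept as labelled.

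The members and all lists were chosen with earlier results of these data known. Component scores, CPM, correlations and variance shares were computed in Python 3.11.15 with NumPy 2.4.6, pandas 2.3.3 and SciPy 1.17.1, and plotted with Matplotlib 3.10.9. Tests used edgeR 4.0.16 in R 4.3.3 on 19600 genes passing filterByExpr with a minimum count of 10 and a minimum total of 15. These hold 99.97% of the counts, with TMM factors of 0.890 to 1.10. A mean was fitted for each of 12 groups over all libraries, leaving 24 residual degrees of freedom, and the biological coefficient of variation was 36.5%. Standard errors were derived as the absolute log2 fold change over the root of F. DESeq2 1.42.0 was an alternative, and steps were tested on simulated data.

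Alternatives for the membership were other pseudocounts, scalings and filters, each treatment alone, and each library left out. Alternatives for the tests were DESeq2, its size factors in edgeR, no filter, a replicate block, the libraries numbered 4 summed, and each library left out. Named genes are the 2 members with the highest and the 2 with the lowest correlation, the 2 of each sign with the most counts, and genes of lists of 5 or fewer. Identifiers were searched among 27231 genes of the species, and 0 matched. Lists by product name, including cuticle, digestion, reproduction and detoxification, were therefore not used, and gene lengths and coordinates are not used here.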

Additional observations from a re-analysis of the deposited data

How the results depend on the processing

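The rule took 97 and 95 of the 100 members with pseudocounts of 0.1 and 2, 75 with TMM-scaled totals, 73 with no limit on the variance and 68 with a mean CPM of 1 or more. It took 5 with genes scaled to unit variance, 0 from the 18 controls alone, 57 from the 18 imidacloprid libraries alone and, chosen after seeing the data, 6 from the third component of the controls. Leaving out 1 library gave 10 to 96 members, with a median of 87, and 31 of 36 cases kept 67 or more. The 5 others were 10 without imidacloprid 72 h replicate 1, 24 without control 12 h replicate 6, 54 without control 36 h replicate 4, 55 without control 72 h replicate 5 and 57 without imidacloprid 12 h replicate 2. The scores still correlated at 0.821 or more in all 36 cases, and in each the members that passed the filters (at least 97) had their sign. With genes scaled to unit variance the scores correlated at 0.787, and at 0.484 with the third component of unscaled genes. Leaving out a time point, also chosen after seeing the data, left 37 without 12 h, 64 without 24 h, 21 without 36 h, 66 without 48 h, 68 without 60 h and 45 without 72 h. The cause of these changes was not tested.

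The second component's share of variance, 12.4%, was 11.4% to 13.3% with 1 library left out, 17.8% in the controls alone and 14.9% without 48 h. The second component of the controls alone was another axis, with an absolute r of 0.241 with the scores. The correlation with it was −0.14 for Fcan01_13530, 0.04 for Fcan01_19351, −0.17 for Fcan01_17703 and −0.12 for Fcan01_16751. The third component of the controls, chosen after seeing the data, had an absolute r of 0.854 with the scores. With that component the same genes, in this order, correlated at 0.77, 0.72, −0.78 and −0.74. With genes scaled, the correlation of Fcan01_19351 with the second component was 0.56. All 10 counts of called members stayed at 0 under the alternatives, including the 360 leave-one-out tests, except for 1 under DESeq2 for time in the controls. With 1 library left out, the positive members' median log2 fold change kept its sign at 12, 24 and 48 h, came to −0.0027 at 72 h without imidacloprid 72 h replicate 1, and turned to −0.21 at 36 h without imidacloprid 36 h replicate 1 and to −0.11 at 60 h without imidacloprid 60 h replicate 3. The negative members' median kept its sign at 36 h in every case, and at each other time point some library's removal turned it. For time in the controls, 31 members had an unadjusted p under 0.05 without control 36 h replicate 3, against 5 with it, as did 3634 of all 19863 genes tested, and 0 members were called. That library had a positive mean of 5.07, against 3.17 and 3.84 in control 36 h replicates 4 and 5, so its removal by itself lowers that group.

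Replicate numbers gave no consistent pairing of libraries of both treatments. Of 8 same-numbered pairs at a time point, deviations correlated from −0.267 to 0.446, and 2 were over 0.1. Differently numbered pairs ran from −0.509 to 0.560. With so few same-numbered pairs, this cannot show that no pairing exists. A fit with a replicate block called 0 members in all 10 comparisons. With 3 pools a group, precision is limited: at 12 h the positive members' mean log2(CPM + 0.5) had an SD between pools of 0.44 in controls and 0.63 with imidacloprid.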
